A study of Homo sapiens with 3 samples.

Results

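Expression of the chromatin remodelers outside the SWI/SNF complex was examined after knockdown of SMARCA4, an ATPase of SWI/SNF, in HCT116 cells, a human colorectal cancer cell line. The genes were all array probes whose gene name was that of a CHD, ISWI, INO80, SRCAP or EP400 family remodeler or a subunit of NuRD. The remodelers ATRX, HELLS, SMARCAD1 and SMARCAL1 were added to these. This gave 39 genes of the 22620 genes measured above background, and all 39 had a probe well above background on all 3 arrays. Total RNA came from HCT116 cells transfected with a small interfering RNA (siRNA) against SMARCA4 (SMARCA4-KD1 or SMARCA4-KD2) and from scrambled-control cells (NC), each on 1 Agilent array with 1 colour. The time between transfection and harvest is not given in the sources used here. The knockdowns were transient and each condition was a single array, so the spread between cultures is unknown.

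Chromatin remodelers use ATP to slide, evict or exchange nucleosomes. Most CHD proteins carry paired chromodomains that bind histone tails. ISWI enzymes space nucleosomes into regular arrays, and INO80, SRCAP and EP400 are linked to the exchange of the histone variant H2A.Z. NuRD joins a CHD ATPase to histone deacetylases and is best known for gene repression. SWI/SNF and NuRD are known to act against each other at many enhancers and promoters, which is the background to asking how the other remodelers stood once SMARCA4 was lowered.

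An siRNA and the probes behind the main values are shown so that it is clear what was targeted and what was read. The siRNA is printed 5′ to 3′ as the sample records give it, with bases 2 to 8 of the printed strand in capitals. The records do not say which siRNA gave SMARCA4-KD1 and which gave SMARCA4-KD2.
SMARCA4 siRNA-1: uCGCUUUGguucgcaaauc
This siRNA was not contained, on either strand, in any 60-base probe of the array (0 probes). Each probe below is given by its leading 30 bases, with the place of the whole probe in hg19 as the array files state it. In the mean of both knockdowns, CHD4, CHD3 and SRCAP lay furthest below NC, GATAD2A lay furthest above it, and the probes of SMARCA5 differed in direction.
CHD4, chr12:6680118-6680177, minus strand: tgctgagtgacatgaaagctgatgtgactc
CHD3, chr17:7816010-7816069, plus strand: ctgtcctgatcccctcttctgtatcaggtt
SRCAP, chr16:30750618-30750677, plus strand: tggtggctgtaattcaggatgacctggact
GATAD2A, chr19:19617471-19617530, plus strand: aaaggatcaggtctgcttttagtttcattt
GATAD2A, chr19:19619473-19619532, plus strand: aaaggacagcaaacaattttataatcctta
SMARCA5, chr4:144469182-144469241, plus strand: gcttcacaaacttggatttgacaaagaaaa
SMARCA5, chr4:144476358-144476417, plus strand: ataggggccagagtttctgcctccaaaatt

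The arrays were alike in signal, with 45.7 to 47.3% of probes well above background. SMARCA4 itself had an intensity of 14026 in NC against 3960 and 4129 in the knockdowns, which is 26.6% and 28.8% of NC after scaling. The sample records name PRMT1 in the treatment field and SMARCA4 in the title, and PRMT1 was 0.27 and 0.37 above NC on the log2 scale in SMARCA4-KD1 and SMARCA4-KD2. All 5 epithelial markers (EPCAM, CDH1, KRT8, KRT18 and KRT19) were well above background on every array. Of 6 markers of other cell types, PTPRC and COL1A1 were well above background, CD3E, PECAM1 and COL3A1 were not, and CD68 had no probe of that name. The 8 spike-in RNAs added to every sample differed from NC by -0.30 and -0.32 in the knockdowns on the scaled log2 values. The size of every difference from NC thus depends on the choice of scale, and so do the genes past 1.5-fold. Scaling to the spike-ins was not among the alternatives compared. The knockdown arrays shared slide 1 whereas NC was on slide 2, so slide and knockdown cannot be told apart. In RNA of a whole culture, fewer cells of a kind and less RNA per cell cannot be told apart either.

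Most of the 39 remodeler genes lay close to NC in both knockdowns. Fold changes are given as differences in log2 intensity after each array was scaled to its 75th percentile, and 1.5-fold, the threshold of the study, is called without a test. In SMARCA4-KD1, CHD4, CHD3, CHD6 and SRCAP were at least 1.5-fold lower than in NC, which is 4 of 39 genes (10.3%) beside 12.2% of all genes. CHD7, RUVBL1, MTA1 and GATAD2A were at least 1.5-fold higher, again 4 of 39 (10.3%), beside 11.2% of all genes. In SMARCA4-KD2, at least 1.5-fold lower were CHD4, SRCAP, CHD3 and CHD6, 4 of 39 (10.3%), beside 9.77% of all genes. GATAD2A was the only gene at least 1.5-fold higher in SMARCA4-KD2, 1 of 39 (2.56%), beside 10.1% of all genes. Both comparisons used the same NC array and so are not independent of each other.

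For the mean of both knockdowns against NC, 4 genes were at least 1.5-fold lower (CHD4, CHD3, SRCAP and CHD6), beside 10.4% of all genes. GATAD2A, RUVBL1 and MTA1 were at least 1.5-fold higher, beside 9.94% of all genes, and the other 32 lay between. That is 10.3% lower and 7.69% higher, near the shares of all genes, so these counts are no result about the remodelers as a group. When the scaling percentile was taken from the detected probes alone (well above background on every array), that split of 4 lower and 3 higher became 4 lower and 1 higher, beside 12% and 8.36% of all genes. The median difference was 0.03 for the 39 genes and 0.03 for all genes tested, with 19 of the 39 below NC and 20 above.

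**Figure D1:**
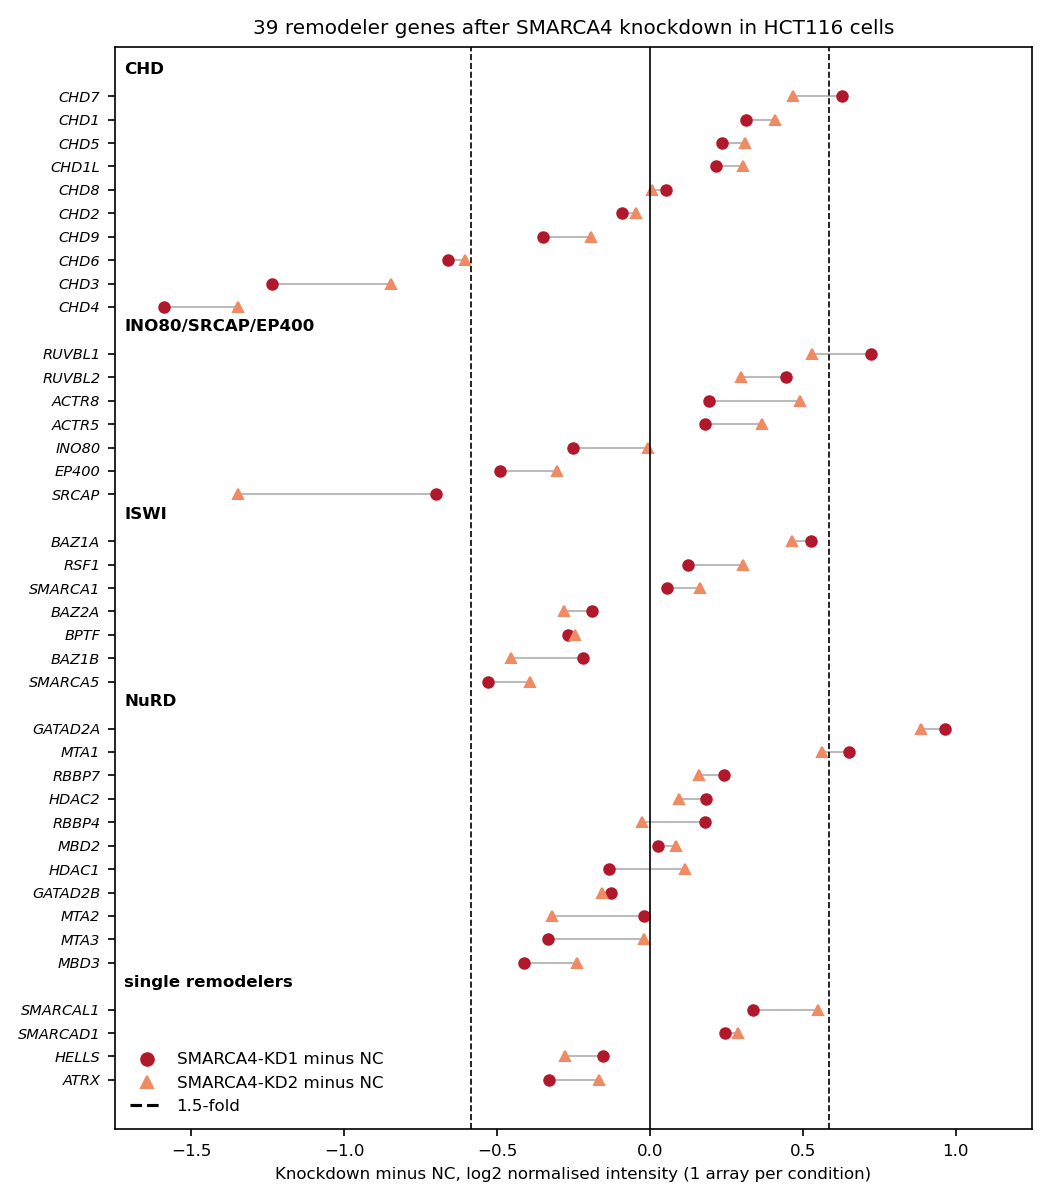
Log2 difference from NC of the 39 remodeler genes, grouped by family, with circles for SMARCA4-KD1, triangles for SMARCA4-KD2 and dashed lines at 1.5-fold (1 array per condition). CHD4 and CHD3 lie far to the left in both knockdowns, GATAD2A lies furthest to the right, and the ISWI genes all lie between the dashed lines.

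Among the CHD family, CHD4 and CHD3 were far below NC while most of the others were near it. CHD4, the main ATPase of NuRD, had an intensity of 2834 in NC against 998 (SMARCA4-KD1) and 1138 (SMARCA4-KD2). Both knockdowns were thus well below NC, by 3.01-fold in SMARCA4-KD1 and 2.55-fold in SMARCA4-KD2. The mean difference was -1.47 ± 0.17 on the log2 scale (SD, n = 2 knockdown arrays), which placed CHD4 at position 160 from the lowest of 22620 genes. Here and below, the SD is the spread between the knockdown arrays alone. It holds no error of the single NC array, so it is not the precision of a difference from NC. CHD3, the alternative NuRD ATPase, had an intensity of 1150.4 in NC against 517 (SMARCA4-KD1) and 654 (SMARCA4-KD2). CHD3 was lower by 2.36-fold and 1.80-fold, so both knockdown arrays lay below NC. The mean difference was -1.04 ± 0.28 (SD, n = 2), at position 584 from the lowest.

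CHD6, a chromodomain ATPase outside NuRD, had an intensity of 1038 in NC against 696 (SMARCA4-KD1) and 698 (SMARCA4-KD2). It was lower by 1.58-fold and 1.52-fold, just past the threshold, with the knockdowns almost equal to each other. On the other side, CHD7, the gene mutated in CHARGE syndrome, had 1026, 1681 and 1452 in the same order. CHD7 was 1.54-fold higher in SMARCA4-KD1 and 1.38-fold higher in SMARCA4-KD2, so the threshold was passed in the former alone. The remaining 6 CHD genes lay within 1.5-fold in both knockdowns. CHD9 had a mean difference of -0.27, CHD2 of -0.07, CHD8 of 0.03, CHD1L of 0.26, CHD5 of 0.27 and CHD1, which binds methylated lysine 4 of histone H3, of 0.36. For the family, 3 of 10 genes (30%) were at least 1.5-fold lower in the mean and 0 higher, beside 10.4% and 9.94% of all genes. A family of 10 genes is too small to read that share as a result. The median difference was -0.02.

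Among the NuRD subunits without ATPase activity, GATAD2A and MTA1 were above NC and none was 1.5-fold below it. GATAD2A, a zinc finger subunit that bridges the deacetylase and remodeling modules of NuRD, had an intensity of 1666 in NC against 3445 (SMARCA4-KD1) and 3150.1 (SMARCA4-KD2). Both knockdowns were above NC, by 1.95-fold and 1.85-fold, with a mean difference of 0.93 ± 0.05 on the log2 scale (SD, n = 2). MTA1, a scaffold that docks the deacetylases, had an intensity of 7398 in NC against 12324 (SMARCA4-KD1) and 11183 (SMARCA4-KD2). MTA1 was higher by 1.57-fold and 1.48-fold, with a mean difference of 0.61 ± 0.06 (SD, n = 2).

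The paralogs of these subunits did not pass 1.5-fold. GATAD2B, which can take the place of GATAD2A, had a mean difference of -0.14, and MTA2 and MTA3 had -0.17 and -0.18. MBD3, the methyl-CpG-binding-domain subunit, had -0.32, and MBD2, its alternative that binds methylated DNA, had 0.05. The deacetylases HDAC1 and HDAC2 had -0.01 and 0.14. The histone-binding subunits RBBP4 and RBBP7 had 0.08 and 0.20. HDAC1, at -0.14 and 0.11, and RBBP4, at 0.18 and -0.03, had a knockdown array on either side of NC. Of the 11 subunits, 0 were at least 1.5-fold lower and 2 (18.2%) higher in the mean, beside 10.4% and 9.94% of all genes. With CHD3, CHD4 and CHD5 added, 2 of 14 NuRD genes were lower and 2 higher (14.3% each), with a median difference of 0.02.

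In the INO80, SRCAP and EP400 families, the ATPases SRCAP and EP400 lay below NC in both knockdowns. INO80 was near NC, and the RUVBL helicases lay above it. SRCAP, the ATPase that loads H2A.Z, was dim, with an intensity of 49.8 in NC against 32.5 (SMARCA4-KD1) and 20.0 (SMARCA4-KD2). The knockdown arrays were both below NC but far apart, by 1.62-fold and 2.54-fold, with a mean difference of -1.02 ± 0.46 (SD, n = 2). The error that the extraction software attaches to the difference, combined over both spots, was 0.28 and 0.34 for SRCAP on the log2 scale, and about 0.20 for brighter genes such as CHD4. EP400, the ATPase of the TIP60 acetyltransferase complex, had 421 in NC against 317 (SMARCA4-KD1) and 349 (SMARCA4-KD2), and a mean difference of -0.40. INO80, which slides and edits nucleosomes, had 106, 94.5 and 108 in the same order, and its mean difference of -0.13 came almost wholly from SMARCA4-KD1.

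RUVBL1, an AAA+ helicase shared by all of these complexes, had an intensity of 625 in NC against 1094 (SMARCA4-KD1) and 924 (SMARCA4-KD2). RUVBL1 was 1.65-fold and 1.45-fold higher, with a mean difference of 0.63 ± 0.13 (SD, n = 2). Its partner RUVBL2 had 4507, 6509 and 5665 in the same order, which is a mean difference of 0.37, short of the threshold. The actin-related subunits of INO80, ACTR5 and ACTR8, had mean differences of 0.27 and 0.34. Of the 7 genes, 1 was lower and 1 higher by at least 1.5-fold in the mean (14.3% each), beside 10.4% and 9.94% of all genes. The median difference was 0.27.

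**Figure D2:**
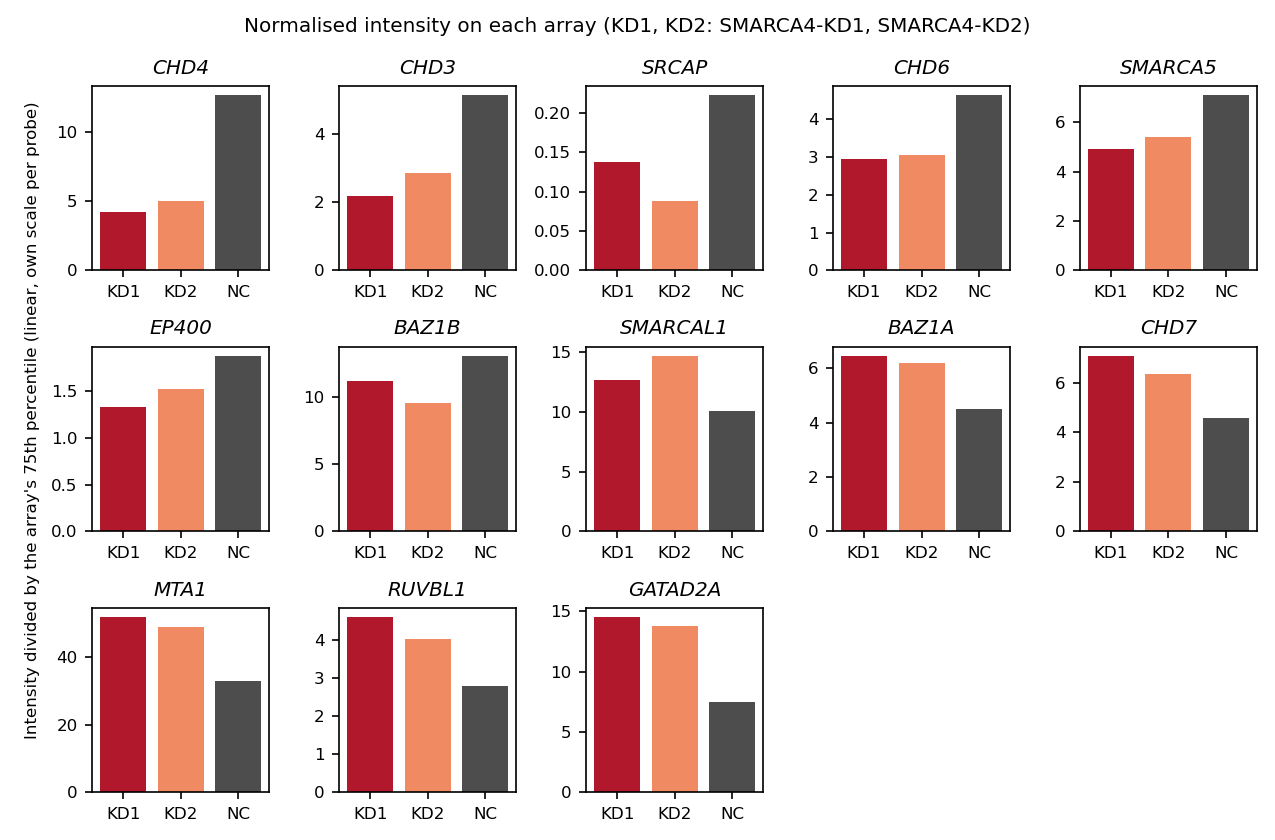
Intensity on each of the 3 arrays, divided by the 75th percentile of that array, for the 7 genes at least 1.5-fold from NC in the mean and the 3 highest and 3 lowest of the rest (linear scale from 0, a scale of its own for each probe, 1 array per bar). Both knockdown bars stand on the same side of the NC bar in every panel.

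The ISWI family had 0 of 7 genes past 1.5-fold in either direction, beside 10.4% of all genes lower and 9.94% higher in the mean. SMARCA5, the main ISWI ATPase, had an intensity of 1589 in NC against 1167 (SMARCA4-KD1) and 1237 (SMARCA4-KD2), with a mean difference of -0.46 ± 0.10 (SD, n = 2). BAZ1B, its partner in the WICH complex, had 2919.8, 2660.1 and 2179.9, with a mean difference of -0.34. BAZ1A, its partner in the ACF and CHRAC complexes, lay on the other side with 1001, 1528 and 1413 and a mean difference of 0.50 ± 0.04 (SD, n = 2). By these probes the subunits of SMARCA5 complexes did not share a direction. The other SMARCA5 probe gave 0.19, on the side of BAZ1A, so the direction of SMARCA5 depends on the probe. BPTF, the large subunit of NURF, had -0.26, BAZ2A, of the nucleolar complex NoRC, had -0.23, SMARCA1, the other ISWI ATPase, had 0.11 and RSF1 had 0.22. The median of the family was -0.23.

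The remodelers outside these families (ATRX, HELLS, SMARCAL1 and SMARCAD1) also lay within 1.5-fold. ATRX, which works with DAXX to place histone H3.3, had an intensity of 1381 in NC against 1166 (SMARCA4-KD1) and 1259 (SMARCA4-KD2), with a mean difference of -0.25. HELLS, which aids DNA methylation, had 1165, 1110.1 and 983 and a mean difference of -0.22. SMARCAL1, an annealing helicase at stalled replication forks, had 2249.9, 3014 and 3365, with a mean difference of 0.44 ± 0.15 (SD, n = 2). SMARCAD1 had a mean difference of 0.27.

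In the median, the knockdowns differed about as much over these genes as over all genes. SMARCA4-KD1 and SMARCA4-KD2 differed by at least 1.5-fold in 1 of 39 genes (2.56%), beside 6.6% of all genes. A single gene is too few to read that share as a result. All genes also include some that were not well above background on every array, unlike the 39. That gene was SRCAP, with a difference of 0.65 on the log2 scale. The median size of the difference between the knockdowns was 0.15 for the 39 genes and 0.13 for all genes. After SRCAP the widest gap in the CHD family was that of CHD3, at 0.39, and the widest among NuRD subunits was that of MTA3, at 0.32.

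A test needs both knockdowns as a group of 2 arrays against the single NC array. An exact permutation of 3 arrays cannot go below p = 0.333. limma fitted across all 22620 genes called 0 of 39 remodeler genes at an adjusted p of 0.05, beside 0% of all genes, and 13 (33.3%) had an unadjusted p under 0.05, beside 30.7% of all genes. CHD4 and GATAD2A shared the smallest adjusted p of the group by limma. That value was also the smallest over all genes, and genes of the related lists, such as MKI67, had it too. It therefore sets neither CHD4 nor GATAD2A apart. When the fit was restricted to the 19504 genes well above background on all arrays, limma called 11 of 39, beside 26.5% of those genes. These were CHD4 (-1.47 ± 0.14, SE, adjusted p = 0.0011), GATAD2A (0.93 ± 0.11, adjusted p = 0.0020), CHD3 (-1.04 ± 0.17, adjusted p = 0.0060), MTA1, CHD6, RUVBL1, CHD7, BAZ1A, SMARCA5, SMARCAL1 and RUVBL2. SRCAP was past 1.5-fold but was not called there (adjusted p = 0.055 by limma). The calls thus changed with the genes entered in the fit, and NC was assumed to vary like the knockdown arrays. The methods' t-test with p of 0.01 and 1.5-fold called 436 genes, 0 of them remodeler genes, and 0 genes after Benjamini-Hochberg adjustment.

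The 39 genes were read by 61 probes, and for 15 genes there was more than 1 probe. Of these, 13 had several probes well above background on all arrays, and in all but 1 of the 13 such probes lay on the same side of NC in the mean of both knockdowns. The 2 probes of GATAD2A gave 0.93 and 1.16, both past 1.5-fold. The exception was SMARCA5, where the brighter probe gave -0.46 and the other 0.19. These probes start 7176 bases apart in hg19, and that the gene lay below NC rests on the brighter of them. For CHD6, 3 probes lay between -0.63 and -0.31, and the average over its probes (-0.46) missed the threshold. For HDAC2 the other probe gave 0.56 beside 0.14 for the brighter. MBD2 and INO80 lie outside the 13, as their other probe was dim and well above background on 2 arrays only. That probe gave -0.71 for MBD2, beside 0.05 for the brighter, and 0.06 for INO80, beside -0.13. The probes of MBD2 and of INO80 thus also lay on opposite sides of NC. CHD3, CHD4, SRCAP, MTA1, RUVBL1 and CHD7 rest on 1 probe each.

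**Figure D3:**
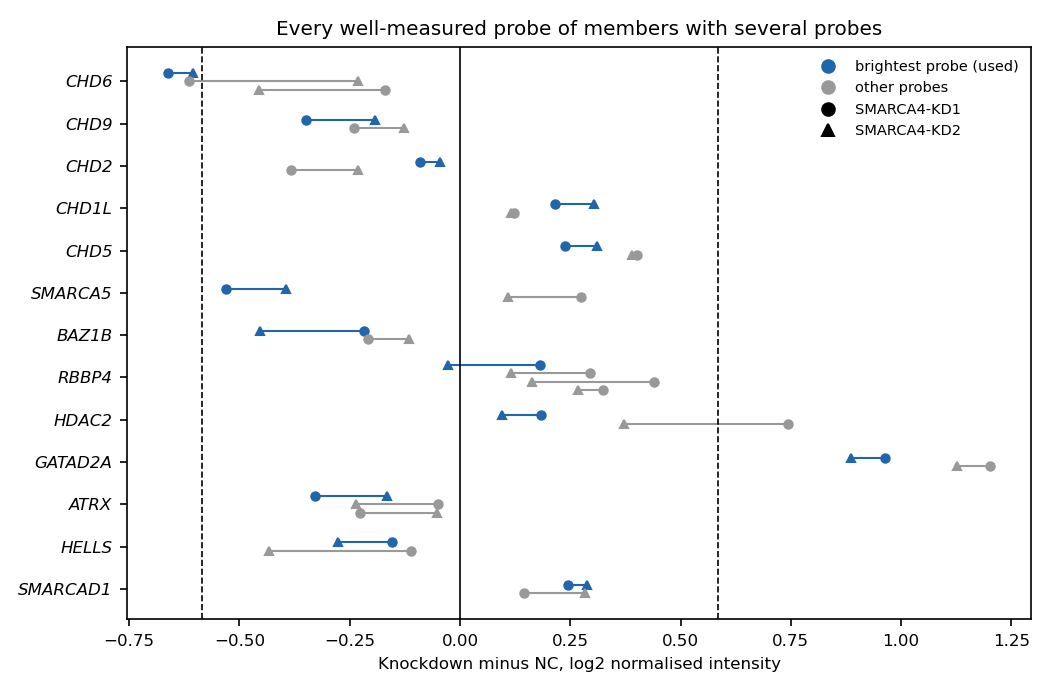
Log2 difference from NC of every probe well above background on all arrays, for the 13 genes with several such probes, with circles for SMARCA4-KD1 and triangles for SMARCA4-KD2 (blue, the brightest probe, which was used; grey, the others; dashed lines, 1.5-fold). Both GATAD2A probes lie right of the 1.5-fold line, and the SMARCA5 probes lie on opposite sides of 0.

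Genes that work with these remodelers were read from lists written by hand. Of 10 other INO80 subunits, INO80B was at least 1.5-fold higher in the mean (0.78) and 0 were lower. Among 15 other subunits of the SRCAP and TIP60/EP400 complexes, BRD8, a bromodomain subunit, was lower (-0.77) and 0 were higher. BAZ2B, a relative of BAZ2A, was lower (-0.59) among 4 other ISWI partners. The 5 other NuRD partners had 0 genes past 1.5-fold. Over all genes, 10.4% were at least 1.5-fold lower in the mean and 9.94% higher. The partner genes thus lay mostly near NC, as the remodeler genes did.

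Lists with more of their genes below NC were the SNF2 helicases of DNA repair and transcription and the genes of DNA replication and cell cycle. Of 10 other SNF2-family helicases (median -0.51), 3 (30%) were at least 1.5-fold lower in the mean and 0 higher, beside 10.4% and 9.94% of all genes. These were ERCC6 (-0.99), which acts in transcription-coupled repair, ERCC6L (-0.72), which acts at mitotic DNA threads, and RAD54L (-0.69), which acts in homologous recombination. Of 12 DNA replication and cell cycle genes (median -0.55), 5 (41.7%) were lower and 0 higher, beside the same shares of all genes. The lower genes were MKI67 (-1.16), CCNB1 (-0.75), TOP2A (-0.70), MCM5 (-0.67) and CCNA2 (-0.59). Both lists are short and were chosen with earlier results of these data known, so their shares are no test. The part of these lists in the values of the remodeler genes was not tested.

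Histone variants and their chaperones were divided. Of 15 genes measured, 4 (26.7%) were at least 1.5-fold lower in the mean and 1 (6.67%) higher, beside 10.4% and 9.94% of all genes. The lower genes were ANP32E (-1.02), which strips H2A.Z from nucleosomes, DAXX (-0.85), the H3.3 chaperone that partners ATRX, ASF1B (-0.75) and CHAF1A (-0.62). ASF1A, the other ASF1 histone chaperone, was higher (0.77), so the ASF1 paralogs lay on opposite sides of NC. The median of the list was -0.10.

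**Figure D4:**
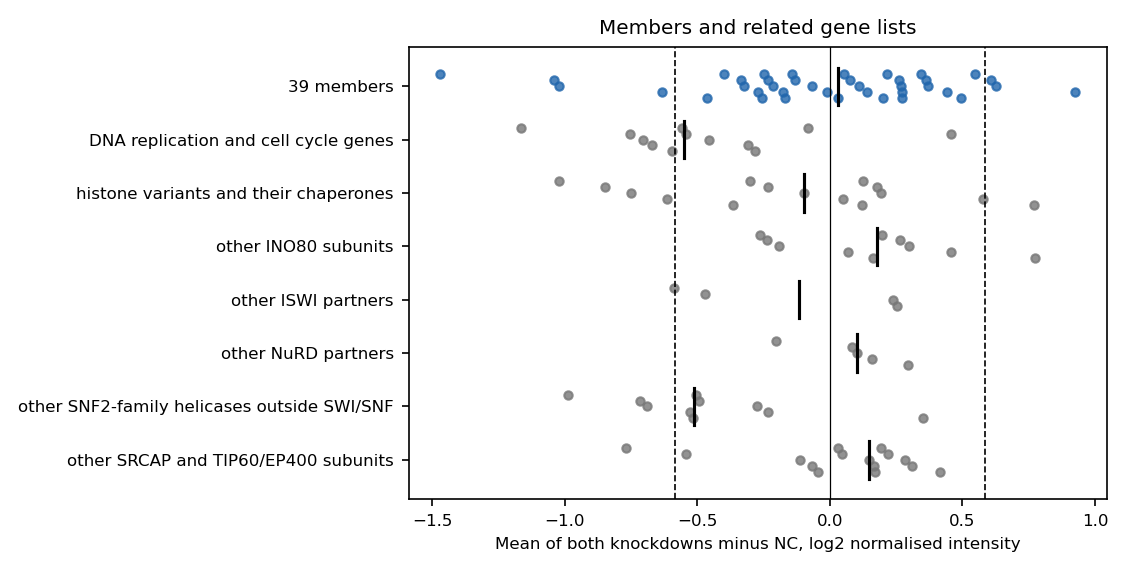
Mean log2 difference of both knockdowns from NC for the 39 remodeler genes (blue) and for each related list (grey), where each point is a gene, the black bar is the list's median and the dashed lines mark 1.5-fold. The remodeler genes spread about evenly around 0, and the medians of the SNF2-family helicases and of the DNA replication and cell cycle genes lie near -0.5.

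The sequence before a RefSeq start site was read for the 4 genes with the widest mean differences, to show what lies there in the 3 that were lower and in GATAD2A, which was higher. RefSeq promoters (GRCh38.p14) were at hand for 33 of the 39 genes, and the 250 bases before the start are used. A single window was kept for each gene name. Whether it lies at the main start site in HCT116 cells was not tested. Capitals mark the GC box (GGGCGG) and the CCAAT box (CCAAT), on either strand.
CHD4, chr12:6606452-6606701, minus strand: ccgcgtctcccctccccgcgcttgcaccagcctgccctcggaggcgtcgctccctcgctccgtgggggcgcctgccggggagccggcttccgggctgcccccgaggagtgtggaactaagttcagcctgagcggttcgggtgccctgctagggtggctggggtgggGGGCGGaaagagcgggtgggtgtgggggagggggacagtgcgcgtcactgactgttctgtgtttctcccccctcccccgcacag
CHD3, chr17:7888539-7888788, plus strand: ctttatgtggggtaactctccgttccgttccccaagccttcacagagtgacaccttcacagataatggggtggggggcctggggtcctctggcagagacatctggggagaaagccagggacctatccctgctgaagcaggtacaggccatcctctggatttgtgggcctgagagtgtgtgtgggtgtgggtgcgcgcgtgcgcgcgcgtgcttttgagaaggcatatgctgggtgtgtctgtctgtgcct
SRCAP, chr16:30698921-30699170, plus strand: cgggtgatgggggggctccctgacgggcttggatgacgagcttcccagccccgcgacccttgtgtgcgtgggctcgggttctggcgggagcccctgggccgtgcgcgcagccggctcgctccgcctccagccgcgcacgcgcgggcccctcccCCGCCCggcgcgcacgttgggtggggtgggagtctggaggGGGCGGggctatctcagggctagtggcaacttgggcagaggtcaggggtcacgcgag
GATAD2A, chr19:19385593-19385842, plus strand: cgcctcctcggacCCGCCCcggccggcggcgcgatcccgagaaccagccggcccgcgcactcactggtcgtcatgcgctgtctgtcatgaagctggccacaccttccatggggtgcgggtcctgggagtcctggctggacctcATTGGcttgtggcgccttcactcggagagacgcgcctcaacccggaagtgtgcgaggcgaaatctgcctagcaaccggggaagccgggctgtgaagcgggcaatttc
The GC content was 72% for CHD4, 58.8% for CHD3, 74.8% for SRCAP and 67.2% for GATAD2A. The CHD4 window held 1 GC box and no CCAAT box, the CHD3 window held neither, the SRCAP window held 2 GC boxes and no CCAAT box, and the GATAD2A window held 1 of each. Over the group, 26 of 33 windows held a GC box (78.8%) and 13 held a CCAAT box (39.4%), beside 42.6% and 32.0% of all 35116 promoters in the table. The E-box CACGTG was in 2 of 33 windows (6.06%), beside 6.34% of all promoters, the cAMP response element TGACGTCA was in 0, beside 1.65%, and the TATA box TATAAA was in 1, that of RUVBL1 (3.03%), beside 3763 of the 35116 promoters. All motifs were searched on both strands. The promoters in the table were not limited to genes measured here, whereas the 39 genes were all well above background. The shares thus come from unlike sets, and their difference was not tested. A match is a description of the letters in this window and no evidence of a site in use.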

How the data were processed

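Total RNA of HCT116 cells was labeled with Cy3 and hybridized to 3 Agilent arrays (SurePrint G3 Human GE v3). The authors extracted a processed intensity for each spot with Agilent Feature Extraction 10.7.1.1, with background subtraction and detrending and without scaling between arrays. Other columns of the deposited files, flags of 0 or 1 among them, were used as given. The series-level table of the authors holds the same intensity, within 0.1% for all but 1 of 57901 probes with a single spot. Per the labels, no condition had a second array.

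Spots flagged as outliers were left out (30 probes), repeated spots were averaged, and the array's 75th percentile was subtracted on the log2 scale. Values that were not well above background were raised to the array's lowest well-measured value where they lay under it. A probe entered if it was well above background on 1 array or more (29334 probes), and each gene name was represented by its brightest probe (22620 genes). The 1.5-fold threshold is that of the study and was called without a test. The knockdowns as a group of 2 arrays were tested against NC with limma 3.58.1 in R 4.3.3, fitted across all genes with an intensity trend, 1 residual degree of freedom and Benjamini-Hochberg adjustment, after being tested on simulated data. Tables were made with pandas 2.3.3 and numpy 2.4.6 in Python 3.11.15, and figures with matplotlib 3.10.9. The precision is limited by the number of arrays.

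The 39 genes and all lists were chosen with earlier results of these data known. All 39 genes are named by role. Values on every array are given for those at least 1.5-fold from NC in the mean, for the 3 highest and 3 lowest of the rest, and for CHD4, SMARCA5, INO80, SRCAP, EP400, ATRX and HELLS, with a few others added after their values were seen (RUVBL2). In related lists, genes at least 1.5-fold from NC in the mean are named. Alternatives covered the normalization, the background correction, the filter, the floor, the summary over probes, the fold threshold and each knockdown alone. A genome of the arrays' build was not used here, so exons and untranslated regions at the probes are not stated. The sequence of the other siRNA is not reported here.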

Additional observations from a re-analysis of the deposited data

How the results depend on the processing

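All 9 summary values were recomputed under each alternative of normalization, background correction, filter, floor, probe summary and source table, the fold counts alone at 2-fold, the mean comparison alone with a knockdown left out, and the limma count alone under the other tests. No gene past 1.5-fold in the mean changed direction with any processing alternative or with a knockdown left out. CHD4, CHD3 and GATAD2A were past 1.5-fold in all 9 settings of processing compared, SRCAP in 8, CHD6 and RUVBL1 in 7 and MTA1 in 6. With normexp background correction (offset 50), 2 genes were lower in SMARCA4-KD1, 2 lower and 2 higher in SMARCA4-KD2, 2 lower and 1 higher in the mean, 0 differed between the knockdowns, and the mean difference of SRCAP was -0.38. Over all genes, normexp gave 4.94% lower and 5.54% higher in the mean, against 10.4% and 9.94% in the main setting. Fewer genes thus passed 1.5-fold in general, not only among the remodelers. Quantile normalization moved the median of the 39 genes to -0.088, and averaging the probes of a gene moved it to -0.010. When the scaling percentile was taken from the detected probes alone, 1 gene was higher in the mean, beside 8.36% of all genes, and the median was -0.021. At 2-fold, 2 genes were lower and 0 higher in SMARCA4-KD1, 2 lower and 0 higher in SMARCA4-KD2, 3 lower and 0 higher in the mean, and 0 differed between the knockdowns. The shares of all genes at 2-fold were not counted, so these counts are no result about the group. With either knockdown left out, the mean comparison had 1 to 4 genes higher, 4 lower and a median of 0.0074 to 0.025. Over all genes, the single knockdowns had 10.1% to 11.2% higher and 9.77% to 12.2% lower. Without SMARCA4-KD1, RUVBL1 and MTA1 no longer passed 1.5-fold, and without SMARCA4-KD2, CHD7 did.

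The limma calls moved most. They were 0 of 39 in the fit reported, 0 without an intensity trend, 5 with quantile normalization (12.8%, beside 11.7% of all genes), 9 with normexp (23.1% beside 15.9%), 11 with the filter on all arrays (28.2% beside 26.5%), 17 with no filter (43.6% beside 66%), 8 with no floor (20.5% beside 14.8%), 8 from the series-level table (20.5% beside 16.5%) and 13 at an unadjusted p under 0.05 (33.3% beside 30.7%). The cause was not tested. No paired analysis was possible because each condition has 1 array. The scaling alternatives moved the median of all genes by less than 0.1, and without a filter, where many genes sit at the floor, it was -0.15. Mean differences at or near 0 (CHD8, HDAC1, MBD2 and RBBP4) changed sign between settings. SRCAP was the dimmest of the genes past 1.5-fold, and had the widest extraction error.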
